A study of Mus musculus with 27 samples.

Results

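Zyxin and its relatives are adaptor proteins of the actin cytoskeleton, and 10 of their genes were followed here among 22524 genes counted by RNA-seq. The members were Zyx, Lpp, Limd1 and Trip6 of the zyxin family and Pdlim1, Pdlim2, Pdlim3, Pdlim4, Pdlim5 and Pdlim7 of the PDZ-LIM family. They were chosen by gene family and selected on how they differed between culture types and between the libraries of each culture. Those differences are therefore given as descriptions, without p-values. Calls of members in these contrasts are counted only beside those of all genes or under alternatives, and are descriptions too. Differences between the facilities of origin were not used in that choice and were tested.

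LIM domains are zinc-binding folds that hold proteins together, and zyxin family proteins use them to settle on actin bundles under tension at focal adhesions, stress fibres and cell junctions. PDZ-LIM proteins add a PDZ domain, which many of them use to bind alpha-actinin, the crosslinker of actin filaments. In epithelia such adaptors are known from the adherens junction belt and from the basal adhesions, and some of them carry signals to the Hippo pathway and to NF-κB.

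The series held 27 libraries. Jejunal organoids, cultures of crypt epithelium at passage 5 to 8, came from 9 male C57BL/6 mice of 8 to 12 weeks, 3 from each of 2 specific pathogen-free (SPF) facilities (SR and SE) and 3 from a germ-free facility (GF). Each organoid culture gave a library labelled untreated and a library labelled as treated with 5 ng/ml murine TNF for 8 h. The m-ICc12 line, an immortalised mouse small intestinal epithelial line, gave 3 such pairs, and mouse embryonic fibroblasts (MEFs) gave 3 untreated libraries. The mice of a facility were cohoused littermates, and m-ICc12 is an established line, so its 3 pairs are not separate donors. Where nothing states separate cultures, as for m-ICc12 cells and MEFs, p-values measure only the spread between these samples, which may be technical.

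In all 12 pairs the name of the data gave the opposite treatment to the sample label, and the groups below follow the labels. Of 10 genes that TNF is known to raise, 7 were lower in organoid libraries labelled TNF-treated and 6 in m-ICc12 libraries labelled TNF-treated, and none was higher (edgeR quasi-likelihood test, adjusted p below 0.05). Nfkbia, which encodes the NF-κB inhibitor IκBα, stood at 196 ± 27.7 CPM (a gene's count scaled to library size, with TMM factors) in organoid libraries labelled untreated and 31.1 ± 3.64 CPM in those labelled TNF-treated (SD, n = 9 each). The labels and this gene set therefore run in opposite directions, and a negative sign below means a lower value in the library labelled TNF-treated. If the names of the data hold, a negative sign stands for a rise with TNF. The organoid and m-ICc12 libraries labelled untreated, which are set against each other and against MEFs below, would then be the treated ones. Library totals ran from 6071103 to 43843615 counts (median 30339856), and 3 counts, taken as the limit of detection, corresponded to 0.0684 to 0.494 CPM. The shallowest library was the m-ICc12 culture M1 labelled TNF-treated. Epithelial markers summed to 7658 to 9608 CPM in organoids, 2068 to 2830 CPM in m-ICc12 cells and 19.7 to 24.6 CPM in MEFs. Fibroblast markers summed to 14.0 to 42.4 CPM, 2615 to 3960 CPM and 9069 to 11861 CPM in the same order. In m-ICc12 cells the epithelial adhesion markers were low, with Epcam at 2.07 to 7.14 CPM and Cdh1 at 0.937 to 6.79 CPM, and the fibroblast list without Vim and Fn1 summed to 27.4 to 44.7 CPM.

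The promoter sequences of 8 members were in the RefSeq table (GRCm38.p6), and stretches are shown for Zyx, which differed between the labels in organoids, for Pdlim1, which was near absence in m-ICc12 cells, and for Pdlim7, which was low in organoids. Positions are counted in bases before the RefSeq start, and annotated untranslated exons over 30 bases were left out. Capitals mark matches to motifs searched on both strands, AP-1 (TGANTCA), TEAD (CATTCC), the NF-κB consensus and the CArG box bound by SRF. Zyx (chr6:42349706-42349779, plus strand) is shown from 122 to 49 bases before the start, within an intron of a longer Zyx transcript. Pdlim1 (chr19:40271617-40271866, minus strand) is shown from 250 bases to 1 base before the start. Pdlim7 (chr13:55513447-55513603, minus strand) is shown from 157 bases to 1 base before the start.
Zyx: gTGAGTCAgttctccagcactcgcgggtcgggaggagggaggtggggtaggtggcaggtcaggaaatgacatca
Pdlim1: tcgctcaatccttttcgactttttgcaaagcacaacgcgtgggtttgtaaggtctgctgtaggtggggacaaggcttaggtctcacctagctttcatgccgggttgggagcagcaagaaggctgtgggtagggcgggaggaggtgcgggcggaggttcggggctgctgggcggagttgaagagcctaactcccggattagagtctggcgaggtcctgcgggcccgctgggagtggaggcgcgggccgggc
Pdlim7: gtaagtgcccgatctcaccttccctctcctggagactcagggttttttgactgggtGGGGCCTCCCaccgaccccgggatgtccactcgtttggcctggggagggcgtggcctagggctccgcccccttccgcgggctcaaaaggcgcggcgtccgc

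The capitals in Zyx are an AP-1 match that starts 121 bases before the start, and those in Pdlim7 are an NF-κB match that starts 101 bases before it. The Pdlim1 window held no match to any of the 4 motifs. Over the whole 250-base windows, Zyx held no NF-κB match, Pdlim5 held an NF-κB match, and Lpp, Trip6 and Pdlim3 held TEAD matches. Among 32851 mouse promoter windows of 250 bases, 7.25% held an NF-κB match, 6.75% an AP-1 match, 12.6% a TEAD match and 1.47% a CArG match. A match describes letters in a window and is not a measured binding site. Limd1 and Pdlim2 had no entry in the table.

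Zyx, the founding member that recruits Ena/VASP proteins to sites of actin repair, was the member whose libraries differed in the same direction in all 9 organoid cultures, which held for no other of the 8 members with enough counts. The gene lies at chr6:42349630-42360213 on the plus strand (GRCm38). In organoid libraries labelled untreated it ranged from 123 to 187 CPM (median 140 CPM, n = 9). In organoid libraries labelled TNF-treated it ranged from 57.8 to 93.2 CPM (median 61.9 CPM, n = 9). The groups did not overlap, and the library labelled TNF-treated was the lower in all 9 cultures. Zyx was selected on this contrast, and the share of all genes with such a pattern was not computed. Nothing about the members can therefore be read from its being the only such member. The group means were 151 ± 25.03 CPM and 69.3 ± 12.8 CPM (SD), and the fitted log2 fold change was -1.13 ± 0.11 (SE). Within a culture the log2 difference ran from -1.41 in the SR culture Z909 to -0.56 in the GF culture Z917, with a median of -1.18.

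**Figure D1:**
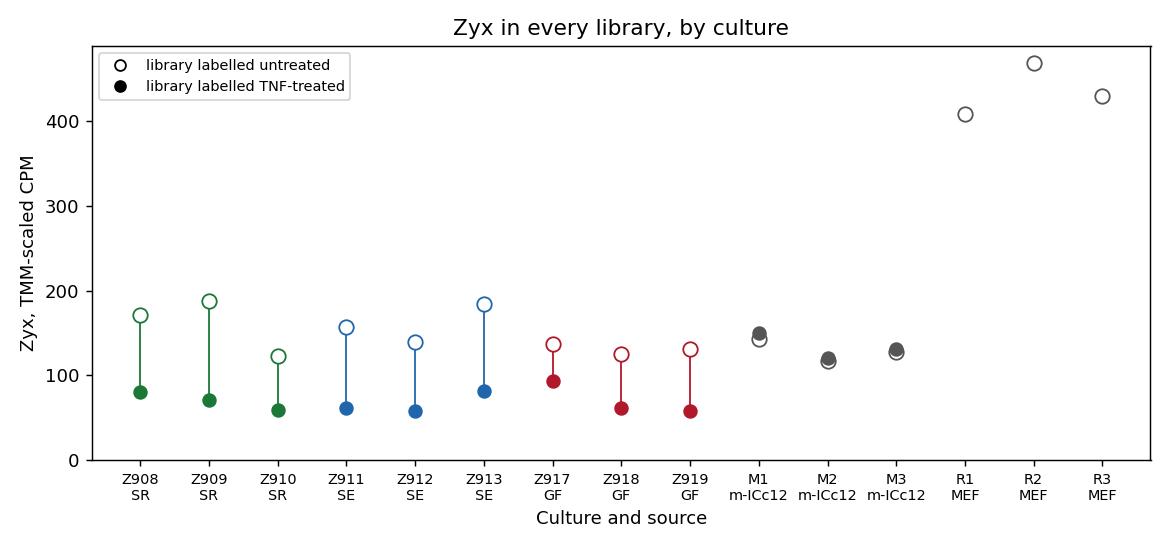
Zyx in TMM-scaled CPM (vertical axis) in each culture (horizontal axis), with open circles for libraries labelled untreated, filled circles for libraries labelled TNF-treated and a line joining the libraries of a culture. All 9 organoid cultures fall from 123 to 187 CPM in the open circles to 57.8 to 93.2 CPM in the filled ones, the m-ICc12 circles nearly coincide, and the MEFs stand highest.

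In m-ICc12 libraries labelled untreated, Zyx stood at 143, 117 and 128 CPM in cultures M1, M2 and M3. The same cultures gave 151, 121 and 131 CPM in the libraries labelled TNF-treated. The 2 libraries that share a culture number were close to each other, with log2 differences of 0.04 to 0.07, smaller than the differences between cultures. In m-ICc12 cells this pairing rests on the number alone, here and below. Deviations from group means correlated at -0.00664 to 0.0925 within these pairs. The fitted log2 fold change was 0.07 ± 0.16 (SE). Over the same libraries Nfkbia went from 87.2 ± 23.9 to 19.5 ± 4.21 CPM (SD, n = 3 each). MEFs held the highest Zyx level, at 408, 468 and 429 CPM.

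The position of organoids against m-ICc12 cells depended on which libraries were compared. Between libraries labelled untreated, the log2 fold change of Zyx in organoids against m-ICc12 cells was 0.25 ± 0.14 (SE). With the treatment exchanged within each culture, as the names of the data would have it, it was -0.95.

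Zyx overlaps Epha1, a receptor tyrosine kinase gene, and the antisense gene Gm44284, both on the opposite strand. The sources used here settle neither that the libraries kept the strand nor that counting used it. Reads in an overlapping stretch therefore cannot be assigned to 1 gene. Epha1 stood at 63.1 ± 8.97 CPM in organoid libraries labelled untreated and 40.7 ± 7.77 CPM in those labelled TNF-treated (SD, n = 9 each), and its fitted log2 fold change was -0.64 ± 0.12 (SE). In MEFs, where Zyx was highest, Epha1 was at 0.425 ± 0.353 CPM (SD, n = 3), so high Zyx counts did not come with high Epha1 counts there. The share of organoid Zyx reads that could belong to Epha1 was not tested.

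Among non-member genes, the 3 whose log2 CPM was most like that of Zyx over the 18 organoid libraries were Relb (r = 0.94), which encodes an NF-κB subunit, Cyba (r = 0.93), which encodes the p22phox subunit of NADPH oxidases, and Nfkbia (r = 0.93). Over all 27 libraries they were Unc5b, Noct and Zfp275, each with r = 0.87. These are likeness values over libraries that share cultures and treatment labels and are given as descriptions.

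Against this, the other members showed no common shift between the libraries of an organoid culture. Of the 8 members with enough counts, Zyx was called lower and none higher, beside 1.39% of 12104 genes called in either direction and 1.26% called lower, and nothing can be read from this since Zyx was selected on this contrast. With culture as a block, which pairs the libraries of each mouse, 397 genes were called between the labels in organoids in place of 168, and the log2 fold change of Zyx was -1.13. Lpp, the lipoma preferred partner of adhesions and junctions, had a log2 fold change of -0.09 ± 0.08 (SE), with 5 of 9 cultures lower and 4 higher. Limd1, which binds the Hippo kinases LATS at junctions under tension, had 0.11 ± 0.08, with 5 of 9 cultures higher. Pdlim1, known as CLP36 and an alpha-actinin partner, had -0.05 ± 0.08, and Pdlim5, known as ENH and a binder of protein kinase C, had 0.05 ± 0.08. These 4 genes had group means of 117 to 149 CPM in organoids, far above the limit of detection.

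**Figure D2:**
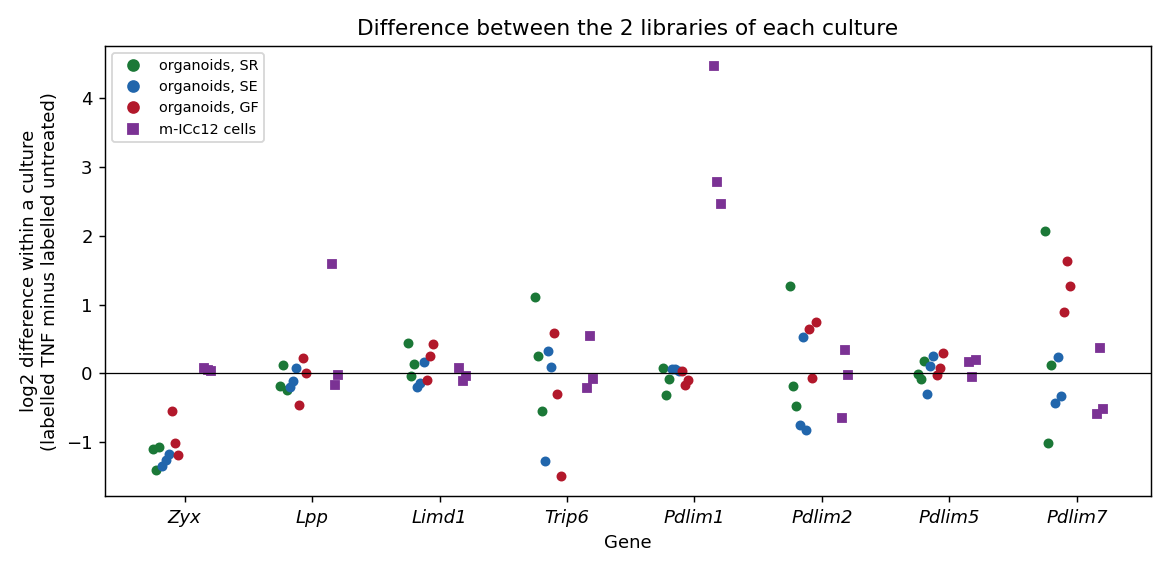
Log2 difference between the library labelled TNF-treated and the library labelled untreated of each culture (vertical axis) for 8 members (horizontal axis), with organoid cultures as circles coloured by facility and m-ICc12 cultures as squares. Zyx lies below 0 in all 9 organoid cultures and at 0.04 to 0.07 in m-ICc12 cells, while Pdlim1 lies near 0 in organoids and at 2.46 to 4.46 in m-ICc12 cells. The m-ICc12 libraries are paired by a shared number only.

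The remaining members expressed in organoids were low and uneven. Trip6, a zyxin family adaptor that also binds LATS kinases, had a log2 fold change of -0.25 ± 0.33 (SE), with within-culture differences from -1.49 to 1.11. Pdlim2, a PDZ-LIM protein known to promote the turnover of the NF-κB subunit p65, had -0.16 ± 0.39, with differences from -0.83 to 1.26. Pdlim7, known as Enigma, had 0.20 ± 0.35, with differences from -1.01 to 2.07.

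In m-ICc12 cells none of the 8 members tested was called between the labels by edgeR, beside 0.11% of 11861 genes called in either direction and 0.0927% called lower. Pdlim1 nevertheless differed in counts. It had 8, 5 and 2 counts in cultures M1, M2 and M3 labelled untreated, and 38, 43 and 12 counts in the same cultures labelled TNF-treated. In CPM these were 0.234, 0.109 and 0.0481 against 6.62, 1.16 and 0.577, so the groups did not overlap but most of the upper mean came from M1. The fitted log2 fold change was 4.37 ± 1.39 (SE), and 3.41 without culture M1. DESeq2 and a fit of all 27 libraries called Pdlim1, with values of 4.43 and 3.85. In fits of m-ICc12 libraries alone, Pdlim1 passed the count filter only through those labelled TNF-treated, which fixed its direction. It was also selected on this contrast, so these calls are descriptions. Even the highest of the m-ICc12 levels was far below the 103 to 150 CPM of organoid libraries labelled TNF-treated.

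Lpp in m-ICc12 cells also turned on M1. It stood at 110, 172 and 185 CPM in M1, M2 and M3 labelled untreated, and at 333, 152 and 182 CPM in those labelled TNF-treated. The log2 fold change was 0.53 ± 0.26 (SE) with M1 and -0.09 without it. Some markers of several cell types were also at their highest in the M1 library labelled TNF-treated. Among markers with more than 3 counts in some m-ICc12 library, it was the highest of the 6 libraries for 7 of 15 epithelial, 3 of 7 fibroblast, 1 of 5 smooth muscle and 1 of 3 immune genes. Any of the 6 libraries would be the highest for some genes. Chga at 0.174 CPM and Lyz1 at 0.523 CPM had no more than 3 counts in that library. Of more abundant markers, Krt8, Krt18, Krt20, Vil1, Vim, Fn1, Col5a1 and Smtn were highest in other libraries. Csf1r, at 138 CPM, was highest in M1 labelled TNF-treated. The examples that follow were chosen after their values were seen. Of fibroblast genes, Col1a1, a collagen, was at 7.49 CPM there and at 0.762 to 3.10 CPM in the others, Col1a2 was at 5.58 against 0.485 to 1.11 CPM, and Dcn, the proteoglycan decorin, was at 2.96 against 0 to 0.547 CPM. Of contractile genes, Tagln, an actin-binding protein of smooth muscle, was at 8.89 CPM, from 51 counts, against 0.293 to 0.409 CPM, and Acta2, smooth muscle actin, was at 3.83 against 0.293 to 0.961 CPM. Of epithelial genes, the cadherin Cdh1 was at 6.79 against 0.937 to 1.94 CPM and Epcam was at 7.14 against 2.07 to 6.83 CPM. The epithelial list summed to 2068 CPM in that library, the lowest of the 6, and 2330 to 2830 CPM in the others. The whole fibroblast list summed to 2949 CPM in that library and 2615 to 3960 CPM in the others, the smooth muscle list to 258 CPM against 213 to 291 CPM, and the immune list to 144 CPM against 75.01 to 126 CPM. The part of other cells or of depth in the M1 values was not tested.

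The sharpest difference between culture types lay in Pdlim1 (chr19:40221173-40271842, minus strand). In libraries labelled untreated, organoids held 101 to 143 CPM (median 122 CPM, n = 9), MEFs held 194, 198 and 179 CPM, and m-ICc12 cells held the 8, 5 and 2 counts given above. The m-ICc12 values did not overlap with either of the other types. The fitted log2 fold change was 9.90 ± 0.30 (SE) for organoids against m-ICc12 cells and -10.59 ± 0.29 for m-ICc12 cells against MEFs, and it rested on few counts on the m-ICc12 side. With the treatment exchanged within each culture these values became 5.996 and -6.72. The 3 genes most like Pdlim1 over 27 libraries were Epb41l3 (r = 0.99), a membrane skeleton protein gene, Nme4 (r = 0.98) and Ccnd2 (r = 0.98), which encodes cyclin D2.

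Trip6, Pdlim2 and Pdlim7 showed another arrangement, being low in organoids. Trip6 (chr5:137309654-137314404, minus strand) ranged from 2.16 to 12.8 CPM in organoid libraries labelled untreated (median 5.32 CPM, n = 9). It stood at 55.1, 33.5 and 42.3 CPM in m-ICc12 cells and at 116, 119 and 122 CPM in MEFs, so the 3 culture types were ordered without overlap. Its log2 fold change was -2.89 ± 0.37 (SE) for organoids against m-ICc12 cells and -4.35 ± 0.33 against MEFs.

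Pdlim7 (chr13:55495795-55513676, minus strand) kept the same order. It ranged from 1.56 to 18.1 CPM in organoids (median 5.36 CPM, n = 9), stood at 75.2, 33.6 and 68.0 CPM in m-ICc12 cells and reached 149, 178 and 157 CPM in MEFs. The corresponding log2 fold changes were -2.96 ± 0.49 and -4.42 ± 0.45 (SE). Pdlim2 (chr14:70164218-70177681, minus strand) ranged from 1.53 to 13.9 CPM in organoids (median 4.22 CPM, n = 9), with 48.8, 33.6 and 42.7 CPM in m-ICc12 cells and 33.6, 33.1 and 35.0 CPM in MEFs. Unlike the other members of this group, Pdlim2 was at like levels in m-ICc12 cells and MEFs, with a log2 fold change of 0.25 ± 0.18 (SE) between them. In bulk cultures, fewer cells expressing a gene and less RNA per cell cannot be told apart.

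**Figure D3:**
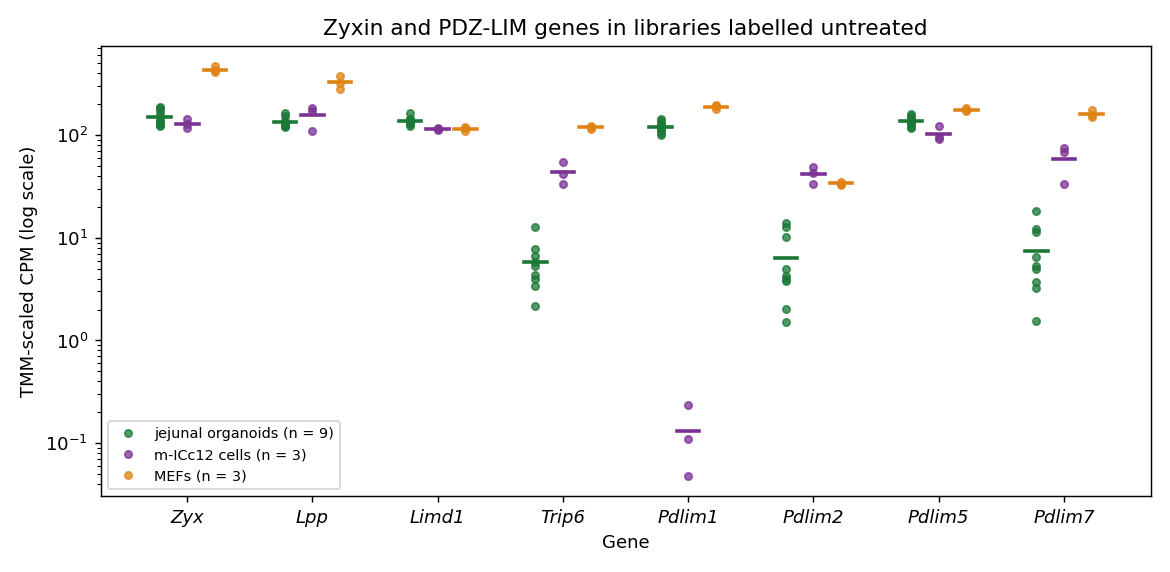
TMM-scaled CPM on a log axis (vertical) of 8 members (horizontal) in libraries labelled untreated, with a point per library and a bar at the mean of each culture type. Trip6, Pdlim2 and Pdlim7 are lowest in organoids, Pdlim1 is near the limit of detection only in m-ICc12 cells, and Limd1 lies at 110 to 164 CPM throughout.

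The other members were expressed at a high level in every culture type. Lpp (chr16:24393507-24992578, plus strand) ranged from 121 to 164 CPM in organoids labelled untreated and stood at 323, 377 and 279 CPM in MEFs, a log2 fold change of -1.25 ± 0.11 (SE). Pdlim5 (chr3:142239590-142395696, minus strand) ranged from 119 to 161 CPM in organoids, stood at 91.9, 123 and 96.3 CPM in m-ICc12 cells and at 183, 171 and 177 CPM in MEFs. Its log2 fold change was 0.44 ± 0.12 for organoids against m-ICc12 cells and -0.34 ± 0.10 against MEFs. Limd1 (chr9:123478706-123521552, plus strand) was the most even member, at 124 to 164 CPM in organoids, 112, 116 and 115 CPM in m-ICc12 cells and 110, 119 and 116 CPM in MEFs. Its log2 fold changes in organoids were 0.30 ± 0.10 and 0.29 ± 0.10 against m-ICc12 cells and MEFs.

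The last members were at or near the limit of detection. Pdlim3 (chr8:45885461-45919548, plus strand), the alpha-actinin-binding ALP of striated muscle Z-discs, was listed at 0 in all 27 libraries. Pdlim4 (chr11:54054928-54069014, minus strand), known as RIL, had 10, 19 and 19 counts in the MEFs, 7 counts in the GF organoid culture Z918 labelled untreated, 6 counts in the m-ICc12 culture M1 labelled untreated, 1 count in M3 labelled TNF-treated, and 0 in the rest. Neither gene allowed a statement beyond detection in MEFs for Pdlim4.

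Set against all genes, 3 of the 8 members tested were called higher in organoids than in m-ICc12 cells (Limd1, Pdlim1 and Pdlim5) and 3 lower (Trip6, Pdlim2 and Pdlim7), where 60.9% of 12962 genes were called, 31.6% higher and 29.3% lower. Against MEFs, 1 of 9 was higher in organoids (Limd1) and 8 lower, where 67.2% of 13144 genes were called, 34.6% higher and 32.6% lower. In m-ICc12 cells against MEFs, 6 of 9 were lower (Zyx, Lpp, Trip6, Pdlim1, Pdlim5 and Pdlim7) and none higher, where 59.3% of 12830 genes were called, 28.1% higher and 31.2% lower. The call of Limd1 was lost without MEF library R1 or R3 (0.26 each) and by DESeq2 (0.22) against MEFs, and without culture M1 (0.30) against m-ICc12 cells. Pdlim4 passed the count filter in both comparisons with MEFs only through the MEFs. Its direction was fixed by that filter, so it adds nothing to these tallies. Pdlim1, at 2 to 8 counts in m-ICc12 cells labelled untreated, passed the filter in both comparisons with m-ICc12 cells only through the other culture type. The direction of Pdlim1 was fixed there too, so it adds nothing to the tallies of those comparisons. The call of Pdlim4 was lost by DESeq2 and without MEF library R2 or R3. The members were selected on these contrasts, and the contrasts share the libraries labelled untreated, so the counts are descriptions.

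Per kilobase of annotated exon, the order of member levels in organoids labelled untreated began with Zyx at 28.0 ± 4.64 CPM per kb, Limd1 at 23.0 ± 1.94, Pdlim1 at 23.0 ± 2.69 and Pdlim5 at 15.5 ± 1.64 (SD, n = 9). It went on with Lpp at 6.15 ± 0.669, Trip6 at 2.38 ± 1.29, Pdlim7 at 1.54 ± 1.10 and Pdlim2 at 1.42 ± 1.04 CPM per kb. Zyx, Limd1 and Pdlim1 lay within their spread of each other, as did Trip6, Pdlim7 and Pdlim2. In libraries labelled TNF-treated Zyx ranked behind Limd1, Pdlim1 and Pdlim5, at 12.9 ± 2.38 CPM per kb. In MEFs the order was led by Zyx at 80.7 ± 5.60, Trip6 at 49.0 ± 1.31 and Pdlim1 at 36.1 ± 1.92 CPM per kb (SD, n = 3).

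Genes of the same structures were counted from lists. Of 10 zyxin and PDZ-LIM relatives tested between the labels in organoids, 1 was lower (Csrp1, a muscle LIM protein relative that binds actin bundles, at -0.53 ± 0.11 on the log2 scale) and none higher, with a list median of -0.07. Of 9 Ena/VASP and actinin partners, 1 was lower (Lasp1, a LIM and SH3 actin binder, -0.41 ± 0.08). Of 18 focal adhesion genes, 2 were lower (Tns3, a tensin, -0.59 ± 0.10, and Fermt1, the epithelial kindlin, -0.33 ± 0.06), and of 21 stress fibre and contractile genes 1 was lower (Myh9, non-muscle myosin heavy chain, -0.32 ± 0.08). None of 13 Hippo and SRF genes was called, and in m-ICc12 cells none of these 5 lists held a called gene. The median over all genes was 0.00 in organoids and -0.01 in m-ICc12 cells.

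Between culture types most genes of any kind were called, so the counts of these lists are set beside those of all genes. Genes that passed the count filter through 1 culture type only had their direction fixed by it. In organoids against MEFs, the stress fibre genes Actg2, Cnn1, Tpm2, Myl9 and Myh10 passed only through MEFs. The focal adhesion genes Tgfb1i1, Parvb, Lims2 and Fermt2 did so too, as did Wwtr1, Ankrd1 and Enah. The focal adhesion gene Tns4 passed only through organoids. In organoids against MEFs, 67.2% of all genes tested were called, 32.6% as lower. In organoids against MEFs, 24 of 26 stress fibre genes were lower and 2 higher (median log2 fold change -2.72), and 17 of 22 focal adhesion genes were lower and 3 higher (median -2.08). Of 15 Hippo and SRF genes, 14 were lower and 1 higher (median -3.34), among them Wwtr1, the Hippo effector TAZ, at 0.190 ± 0.0969 CPM in organoids (SD, n = 9) and 133 ± 5.29 CPM in MEFs (SD, n = 3). The median over all genes was 0.03. Of 11 partners, 6 were lower and 4 higher, with Enah, an Ena/VASP protein that zyxin recruits, at 0.273 ± 0.214 CPM in organoids and 83.4 ± 5.25 CPM in MEFs. Vasp, of the same family, went the other way, with 227 ± 28.0 CPM in organoids and 105 ± 7.16 CPM in MEFs. Of 10 relatives, 3 were lower, led by Ajuba, a zyxin family adaptor, at 12.1 ± 3.85 against 234 ± 10.9 CPM, and 6 were higher.

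Against m-ICc12 cells, where 60.9% of all genes tested were called and 29.3% were lower, organoids were lower in 16 of 22 focal adhesion genes and higher in 3 (median -1.60), lower in 14 of 22 stress fibre genes and higher in 4 (median -0.69), and lower in 9 of 15 Hippo and SRF genes and higher in 4 (median -2.07). Among 10 partners 7 were lower and 2 higher. Among 10 relatives 4 were lower and 3 higher, and for the relatives the share was near that of all genes. Of these genes, Enah, Parvb, Parvg, Lims2, Fermt2, Myh10, Wwtr1 and Ankrd1 passed the count filter only through m-ICc12 cells. Tns4 and Ldb3 passed it only through organoids, so the directions of all of these were fixed. In m-ICc12 cells against MEFs, 59.3% of all genes tested were called, 31.2% as lower, and the median over all genes was -0.05. Of the lists, 20 of 26 stress fibre genes were lower and 1 higher (median -1.34), while 11 of 22 focal adhesion genes were lower and 6 higher (median -0.35). Of 15 Hippo and SRF genes 10 were lower and 1 higher (median -0.77). Of 11 partners 4 were lower and 3 higher (median -0.14), and of 10 relatives 4 were lower and 4 higher (median 0.09). Here Actg2, Cnn1, Tpm2, Myl9, Tgfb1i1, Nebl and Ldb3 passed the filter only through MEFs, and Parvg only through m-ICc12 cells. Their directions were fixed as well. Fermt2, the broadly expressed kindlin, stood at 0.358 ± 0.218 CPM in organoids (SD, n = 9), 124 ± 26.6 CPM in m-ICc12 cells and 272 ± 2.63 CPM in MEFs (SD, n = 3 each). Fermt1 had the reverse order, at 225 ± 12.6, 55.9 ± 5.52 and 0.388 ± 0.120 CPM.

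Low members also varied most between organoid cultures. In cultures labelled untreated (n = 9), the coefficient of variation was 53.9% for Trip6, 73.0% for Pdlim2 and 71.8% for Pdlim7. For Limd1, Pdlim5, Lpp, Pdlim1 and Zyx it was 8.44%, 10.6%, 10.9%, 11.7% and 16.6%. Counting error alone would give 8.20%, 7.64% and 7.12% for Trip6, Pdlim2 and Pdlim7, from their mean counts, and 1.57% to 1.76% for the others. In libraries labelled TNF-treated the 3 low members had smaller coefficients, 32.2%, 41.1% and 29.5%, a difference that was not tested.

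**Figure D4:**
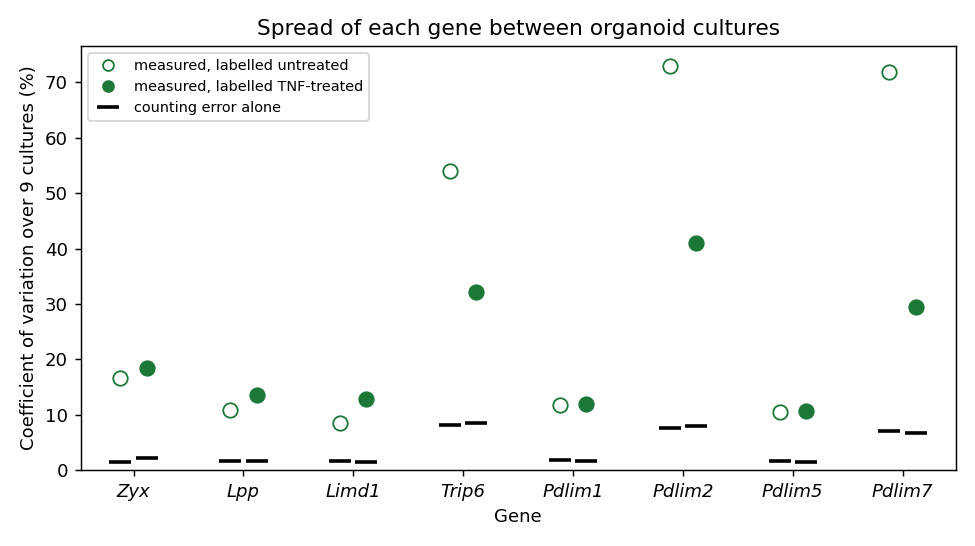
Coefficient of variation in percent over the 9 organoid cultures (vertical axis) of 8 members (horizontal axis), with open circles for libraries labelled untreated, filled circles for libraries labelled TNF-treated and dashes for the value counting error alone would give. Trip6, Pdlim2 and Pdlim7 stand at 29.5% to 73.0% and the other members at 8.44% to 18.5%, above the dashes in every case.

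The facility of the mice was a separate axis, and here members were tested. The question was whether organoids differed by the origin of their donors. The mice of a facility were cohoused littermates, so microbiota, facility, litter and cage cannot be told apart. The p-values measure the spread between cultures of such littermates, not between litters. No member was called between GF and SPF organoids labelled untreated, where 4 of 12315 genes were called (0.0325%) and 491 had an unadjusted p below 0.05. Zyx stood at 137, 125 and 132 CPM in the GF cultures and at 123 to 187 CPM in the SPF cultures (median 165 CPM, n = 6), so the ranges overlapped. Its log2 fold change was -0.29 ± 0.14 (SE), with an unadjusted p of 0.0533 and an adjusted p of 1.00 by edgeR's quasi-likelihood test. In libraries labelled TNF-treated the same difference was 0.04.

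Pdlim7 stood at 5.00, 3.75 and 3.24 CPM in GF cultures, and at 1.56 to 18.1 CPM in SPF cultures (median 8.90 CPM, n = 6). Its log2 fold change was -1.19 ± 0.62 (SE; edgeR, unadjusted p = 0.0690, adjusted p = 1.00), and 0.25 in libraries labelled TNF-treated. Lpp, Limd1, Trip6, Pdlim1, Pdlim2 and Pdlim5 had log2 fold changes between -0.34 ± 0.68 (Pdlim2) and 0.44 ± 0.57 (Trip6), with unadjusted p from 0.212 to 0.676.

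No gene was called between the SPF facilities SR and SE by edgeR (0% of 12219 genes), where 486 genes had an unadjusted p below 0.05 and DESeq2 called 8 genes. Pdlim2 stood at 1.53, 4.96 and 3.82 CPM in SR cultures and at 12.7, 4.22 and 13.9 CPM in SE cultures, with SE culture Z912 inside the SR range. Its log2 fold change was -1.57 ± 0.66 (SE; edgeR, unadjusted p = 0.0308, adjusted p = 1.00). Pdlim1 stood at 143, 128 and 126 CPM in SR cultures and at 105, 113 and 101 CPM in SE cultures, with no overlap. Its log2 fold change was 0.32 ± 0.15 (SE; edgeR, unadjusted p = 0.0507, adjusted p = 1.00).

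The difference between labels was also compared between GF and SPF organoids, as an interaction. No gene was called by edgeR (0% of 12640 genes), with 323 genes at an unadjusted p below 0.05 and 1 gene called by DESeq2. For Zyx the within-culture log2 differences were -0.56, -1.02 and -1.19 in GF cultures, -1.10, -1.41 and -1.06 in SR cultures and -1.35, -1.27 and -1.18 in SE cultures. The GF difference was smaller by 0.33 ± 0.22 on the log2 scale (SE; edgeR, unadjusted p = 0.145, adjusted p = 1.00), and by 0.12 without the GF culture Z917. That fit has no term for culture. With culture as a block, which uses the pairing, no gene was called either, 465 genes had an unadjusted p below 0.05, and the Zyx difference was 0.30 ± 0.16 (SE; edgeR, unadjusted p = 0.0652, adjusted p = 1.00).

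Pdlim7 had the largest interaction of the members, 1.45 ± 0.70 (SE; edgeR, unadjusted p = 0.05001, adjusted p = 1.00), or 1.20 ± 0.64 with culture as a block (unadjusted p = 0.0706, adjusted p = 1.00). In GF cultures Z917, Z918 and Z919 it stood at 5.00, 3.75 and 3.24 CPM in libraries labelled untreated and at 9.30, 11.8 and 7.88 CPM in those labelled TNF-treated, without overlap. In SPF cultures it stood at 1.56 to 18.1 CPM and 6.03 to 13.4 CPM, with overlap. The other 6 members besides Zyx had interactions between -0.51 ± 0.71 (Trip6) and 0.60 ± 0.86 (Pdlim2). Over the 3 comparisons by origin, DESeq2 called no member either, and an unadjusted p below 0.05 was found for 1 member in 1 comparison, Pdlim2 between SR and SE.

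**Figure D5:**
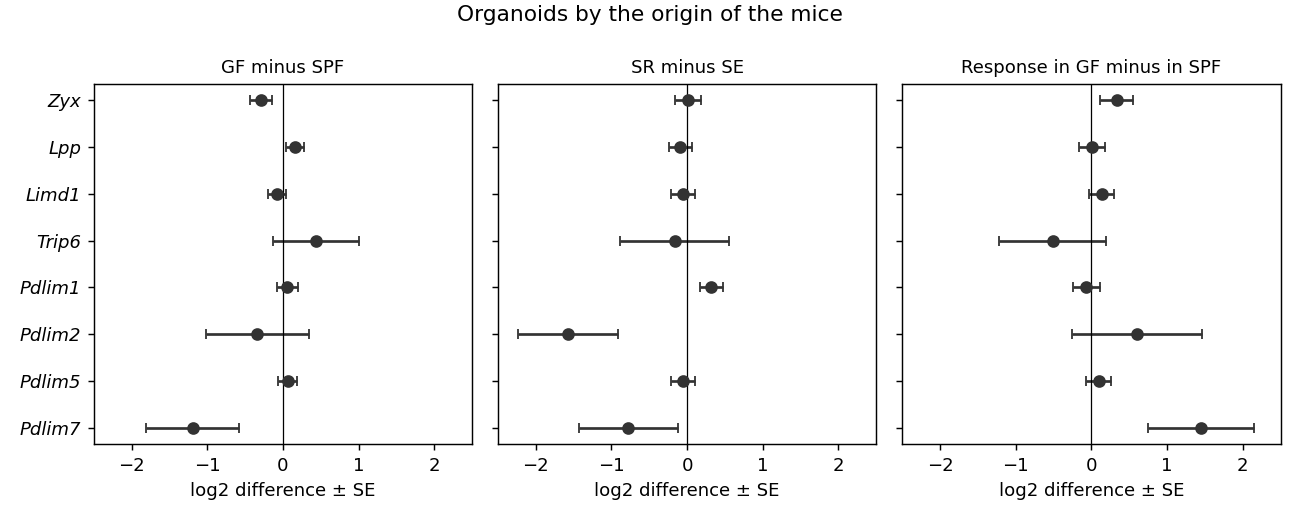
Log2 difference with its SE (horizontal axis) for 8 members (vertical axis) in GF against SPF organoids, SR against SE organoids and the difference between labels in GF against SPF organoids. No member passed the threshold, and Pdlim2 and Pdlim7, with SEs of 0.62 to 0.86, are the least precisely measured along with Trip6.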

How the data were processed

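RNA was poly-A selected, prepared with a TruSeq kit, which the labels call stranded and the methods do not, and sequenced as single reads. The authors trimmed reads with Trimmomatic, aligned them with STAR to GRCm38 (version 2.5.4b in the submitters' processing notes) and counted reads per Ensembl gene. The counter is named differently in the methods and the notes, and use of strand and treatment of multi-mapping reads are not stated. The authors deposited whole-number counts per gene, 1 table per library.

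From these counts, CPM scaled by TMM over 27 libraries were computed, and 8 comparisons were fitted with edgeR 4.0.16 (R 4.3.3) quasi-likelihood tests, 1 per comparison, with genes kept at 10 or more counts in 50% of the libraries of a group and Benjamini-Hochberg adjustment over all genes tested (threshold 0.05). SE is the absolute log2 fold change over the square root of F. Likeness is Pearson's r of log2 CPM with a prior count of 2, with the 3 highest genes named. For each gene list, counts of calls are given and at most 4 genes with the smallest p are named. Pdlim3 and Pdlim4 were too low for most fits. Scripts were tested on simulated data. Alternatives were DESeq2 1.42.0, no filter, 1 fit of 27 libraries, exchanged treatment labels, a culture block and leaving out each culture.

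The members and lists were chosen with earlier results of these data known. Organoid libraries of a culture came from the same mouse, and their deviations from group means correlated at 0.0821 to 0.311 (mean 0.171, 9 pairs), so they are paired. Depth ranged from 6071103 to 43843615 counts, and limits of detection cover counting error only. Gene positions and exon lengths are from GENCODE for GRCm38 and promoters from RefSeq (GRCm38.p6).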

Additional observations from a re-analysis of the deposited data

Results flagged for a closer look

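Among the organoid groups of 9 libraries, 17 gene and group pairs had a spread and were looked at for a library far from the rest, and chance marks about 1 in 20. Pdlim3 in both groups and Pdlim4 in libraries labelled TNF-treated were at 0 in all 9 and could not be looked at. Pdlim1 in organoid libraries labelled TNF-treated had its highest value, 150 CPM, in the SR culture Z908, apart from the other 8 libraries, which lay at 103 to 122 CPM. Pdlim4 in organoid libraries labelled untreated was at 0.232 CPM in the GF culture Z918, from 7 counts, and at 0 in the other 8, so any count there would have stood apart.

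For Zyx, the library labelled TNF-treated was lower in 9 of 9 organoid cultures, while in the 3 m-ICc12 cultures the log2 differences were all above 0 but close to it, with a median of 0.049. The difference between the culture types was not tested, and the m-ICc12 differences were smaller than the spread between its cultures.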

How the results depend on the processing

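Of 97 counts of called genes under alternatives, 78 were within 1.5 times of the main count. With culture as a replicate block, 397 genes were called between the labels in organoids in place of 168, and 6 in place of 13 in m-ICc12 cells. The m-ICc12 cultures share only a number, with correlations of -0.00664 to 0.0925. In m-ICc12 cells, 46 genes were called by DESeq2, 30 without a filter, 29 in the fit of 27 libraries, and 15 to 93 when a culture was left out, 93 without M2. Between GF and SPF organoids, 4 calls became 21 by DESeq2, 29 in the fit of 27 libraries and 2 to 5 when a culture was left out. Between SR and SE, 0 calls became 8 by DESeq2, 5 without a filter, 2 in the fit of 27 libraries, 1 with treatments exchanged and 0 to 35 when a culture was left out, 35 without Z909. The interaction gave 1 call by DESeq2. The cause of these shifts was not tested.

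Of member values, Zyx in organoids against m-ICc12 cells reversed to -0.95 with treatments exchanged. The mean CPM of Limd1 in m-ICc12 cells labelled untreated moved from 114 to 120 without TMM factors. Calls changed for Lpp, Limd1, Pdlim1 and Pdlim4 in 15 alternatives, with Lpp called between the labels in m-ICc12 cells without M2 (0.82). The other 418 member values under alternatives kept their call (of leaving out a culture, the lowest and the highest value were kept). Pdlim1 in m-ICc12 cells labelled untreated rests on 2 to 8 counts, the limit that depth sets.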
